A study of Rattus norvegicus with 16 samples.

Results

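RANKL, OPG, RANK and M-CSF are the secreted and receptor proteins that set how many osteoclasts, the bone-resorbing cells, a tissue forms, and their genes are Tnfsf11, Tnfrsf11b, Tnfrsf11a and Csf1. The 4 genes were taken by symbol, and all 4 were found among the 14476 genes counted. All 4 were also among the 12857 genes kept by the filter on low counts. The counts came from RNA-seq of 16 libraries from 4 Sprague-Dawley rats, made to compare tissues of the Masquelet technique, in which a cement spacer placed in a bone defect becomes wrapped in a membrane before grafting. Each rat had a plated osteotomy on both sides, with a polymethyl methacrylate (PMMA) spacer in 1 and nothing in the other, and all tissue was taken at 4 weeks. Each rat gave 1 library to each of 4 groups. These were the induced membrane around the spacer (IM), tissue from the osteotomy left empty (PFNU, which the labels call pre-fibrous non-union), bone next to the spacer (PMMA bone) and bone next to the empty defect (BNED). No treatment or allele other than the surgery is named, and the sources used here do not give the sex or age of the rats. All groups share the plated osteotomy and the week of sampling, and unoperated bone and other weeks were not analysed here.

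RANKL, made by osteoblast-lineage cells, osteocytes, fibroblasts and activated lymphocytes, binds RANK on osteoclast precursors and drives them to fuse and resorb. OPG is a secreted decoy receptor that takes up RANKL, so the balance of RANKL and OPG is commonly read as the drive to form osteoclasts. M-CSF acts through its own receptor, Csf1r, to keep monocytes, macrophages and osteoclast precursors alive and dividing.

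Libraries held 40472228 to 76815879 counts, and the lowest count of any of the 4 genes in a library was 46. In these bulk tissues, fewer cells of a type and less RNA per cell cannot be told apart. Osteoblast markers (10 of 11 in the table, none at 0) summed to between 61633 and 94028 CPM (counts scaled to a common library size, with TMM factors) in PMMA bone, and to between 21138 and 52740 CPM in BNED. They were present in the tissues of the defect too, at 8242 to 52305 CPM in IM and 10336 to 28717 CPM in PFNU. Skeletal muscle markers (14 of 14, none at 0) summed to between 22254 and 315222 CPM in IM and to between 54891 and 172480 CPM in PFNU, against 1650 to 10162 CPM in PMMA bone and 3506 to 33726 CPM in BNED. Muscle and bone transcripts were thus both present in the defect tissues. The PMMA bone library of rat 1 stood apart, with erythroid markers (11 of 14 in the table, none at 0) at 6978 CPM against 335 to 1055 CPM in the other PMMA bone libraries and 3403 to 5612 CPM in BNED. The IM library of rat 3 stood apart by its bone genes, with 1009 CPM of Acp5 against 113 to 225 CPM in the other membranes. Without the PMMA bone of rat 1, none of the 4 genes changed direction or call in PMMA bone against BNED or in IM against PMMA bone, and without the IM of rat 3 none did so in IM against PMMA bone. In IM against PFNU, where none of the 4 passed, the log2 change without the IM of rat 3 was -0.0017 for Tnfrsf11a and -0.094 for Csf1, against 0.34 and 0.06 with it.

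Tnfsf11, which encodes RANKL, was highest in bone next to the spacer. It stood at 8.71, 6.99, 12.8 and 10.05 CPM in the PMMA bone of rats 1 to 4, against 4.06, 2.45, 5.66 and 4.61 CPM in the BNED of the same rats. Every PMMA bone library lay above every BNED library, and the gene was higher in 4 of 4 rats. In the defect it stood at 9.14, 2.44, 2.77 and 0.908 CPM in the IM of rats 1 to 4, against 1.62, 1.38, 1.60 and 2.57 CPM in PFNU. The membrane of rat 1 was at the level of PMMA bone, the membrane of rat 4 was below every PFNU library, and the groups overlapped. Group means ordered PMMA bone (9.64 ± 2.45 CPM), BNED (4.20 ± 1.34 CPM), IM (3.81 ± 3.64 CPM) and PFNU (1.79 ± 0.528 CPM; SD, n = 4 each), and in that order only PMMA bone and BNED were neighbours whose libraries did not overlap.

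The RefSeq promoter window of Tnfsf11 is shown because it is the start of the gene whose product drives osteoclast formation. It spans chr15:60114430-60114729 of GRCr8 on the minus strand, 300 bases around the transcription start, and TATAA is in capitals. The window was read 5′ to 3′ and is 61.3% G and C.
Tnfsf11: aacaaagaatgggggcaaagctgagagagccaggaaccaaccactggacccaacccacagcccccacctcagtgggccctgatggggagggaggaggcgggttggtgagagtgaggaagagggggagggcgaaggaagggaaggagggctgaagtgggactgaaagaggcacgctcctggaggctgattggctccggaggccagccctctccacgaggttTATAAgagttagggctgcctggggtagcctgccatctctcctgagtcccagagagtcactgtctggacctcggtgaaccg
TATAA lies 30 bases before the start. Its reverse complement, TTATA, overlaps it by all but 1 base, and 26.2% of the 33469 RefSeq rat promoters of this length hold TATAA on either strand. TGACTCA, the consensus of AP-1, and AACCACA, the consensus of RUNX factors, are not in this window on either strand; 4.63% and 5.57% of all promoters hold them.

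Tnfrsf11b, which encodes OPG, was highest in the membrane. It stood at 62.5, 73.4, 38.5 and 19.2 CPM in the IM of rats 1 to 4, against 28.0, 13.98, 16.1 and 10.2 CPM in PFNU. It was higher in 4 of 4 rats, while the IM library of rat 4 lay inside the PFNU range. In bone it stood at 25.0, 17.2, 17.7 and 21.1 CPM in the PMMA bone of rats 1 to 4, against 7.66, 5.996, 13.02 and 25.1 CPM in BNED. PMMA bone was higher in rats 1 to 3 and lower in rat 4, and the groups overlapped. Means were 48.4 ± 24.3 CPM in IM, 20.2 ± 3.62 CPM in PMMA bone, 17.1 ± 7.68 CPM in PFNU and 12.9 ± 8.63 CPM in BNED (SD, n = 4 each), and each pair of neighbours in that order overlapped.

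Tnfrsf11a, which encodes RANK, was highest in bone next to the spacer. It stood at 38.1, 48.5, 69.9 and 36.2 CPM in the PMMA bone of rats 1 to 4, against 18.5, 17.2, 27.9 and 29.3 CPM in BNED. Every PMMA bone library was above every BNED library. In the defect it stood at 26.2, 8.10, 31.5 and 11.5 CPM in the IM of rats 1 to 4, against 16.4, 9.66, 22.3 and 12.7 CPM in PFNU. In both defect tissues rats 1 and 3 were above rats 2 and 4, and the groups overlapped. Means were 48.2 ± 15.4 CPM in PMMA bone, 23.2 ± 6.24 CPM in BNED, 19.3 ± 11.3 CPM in IM and 15.3 ± 5.45 CPM in PFNU (SD, n = 4 each), and only PMMA bone and BNED were neighbours without overlap. RefSeq lists this symbol also as an older name of Zcchc2, which had a row of its own in the table.

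Csf1, which encodes M-CSF, was highest in bone next to the spacer, with the other groups alike in their means. It stood at 205, 256, 292 and 178 CPM in the PMMA bone of rats 1 to 4, against 110, 120, 173 and 193 CPM in BNED. PMMA bone was higher in 3 of 4 rats, with rat 4 the exception. In the defect it stood at 197, 94.0, 194 and 107 CPM in the IM of rats 1 to 4, against 177, 102, 176 and 111 CPM in PFNU. As for Tnfrsf11a, rats 1 and 3 were above rats 2 and 4 in both tissues, and within each rat the membrane and PFNU lay close together. Means were 233 ± 51.4 CPM in PMMA bone, 149 ± 40.5 CPM in BNED, 148 ± 55.0 CPM in IM and 142 ± 40.5 CPM in PFNU (SD, n = 4 each), and all neighbours in that order overlapped.

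**Figure D1:**
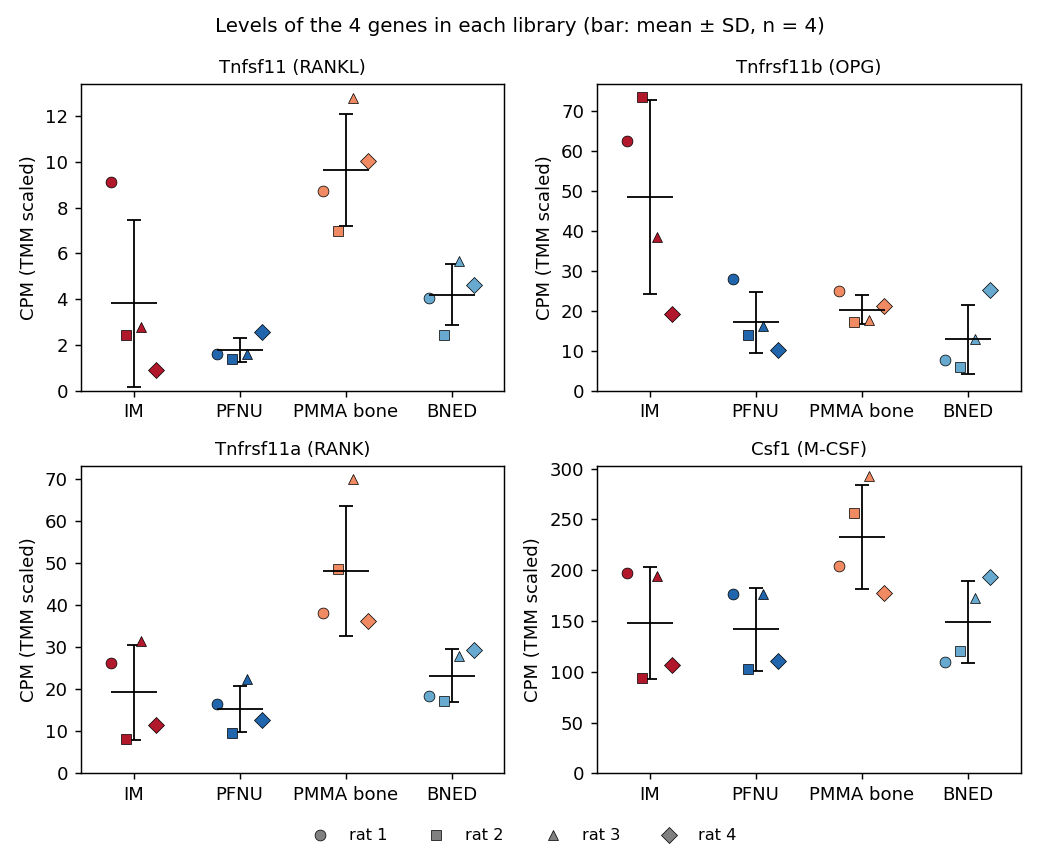
Levels of Tnfsf11, Tnfrsf11b, Tnfrsf11a and Csf1 in CPM (scaled by TMM library size, vertical axis) in the 4 libraries of each group (horizontal axis). Symbols mark the rat and bars give mean ± SD (n = 4); PMMA bone lies above BNED without overlap for Tnfsf11 and Tnfrsf11a, and IM spreads from 19.2 to 73.4 CPM for Tnfrsf11b.

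The first comparison set the membrane against the tissue of the empty defect. Of the 4 genes, 0 passed edgeR's quasi-likelihood test at an adjusted p under 0.05, where 0.863% of all genes tested did. Of the 4, 1 had an unadjusted p under 0.05 (15.5% of all genes) and DESeq2 called 1 (4.46%). Tnfrsf11b had the largest difference, with a log2 change of 1.503 (SE 0.46, adjusted p = 0.132). The skeletal muscle sums of the membranes ran opposite to it, at 22254 and 44951 CPM in rats 1 and 2 against 200631 and 315222 CPM in rats 3 and 4. With the muscle marker level as a covariate the log2 fold change of Tnfrsf11b was 0.89 (SE 0.27, adjusted p = 0.0919). Fibroblast markers (10 of 10 in the table, none at 0) moved with Tnfrsf11b, summing to 16244 to 39054 CPM in IM against 10239 to 20437 CPM in PFNU. All 10 had a positive fold change (median 0.97 on the log2 scale), 1 passed and 9 had an unadjusted p under 0.05. Chondrocyte markers (8 of 10 in the table, none at 0) summed to 387 to 2290 CPM in IM against 126 to 357 CPM in PFNU. Those ranges did not overlap. All 7 tested had a positive fold change (median 2.57), 0 passed and 5 had an unadjusted p under 0.05. The part of the fibroblast and chondrocyte markers was not tested. Tnfsf11 had a log2 change of 1.09 (SE 0.51, adjusted p = 0.321), which rested on rat 1: without that membrane it was 0.21 (adjusted p = 0.835). With the muscle level as a covariate it was 0.43 (adjusted p = 0.708), and with the erythroid level 0.54 (adjusted p = 0.807). Tnfrsf11a had a log2 change of 0.34 (SE 0.39, adjusted p = 0.752) and Csf1 of 0.06 (SE 0.29, adjusted p = 0.953), both smaller than the spread between rats.

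The second comparison set bone next to the spacer against bone next to the empty defect. Of the 4 genes, 0 passed the edgeR test, where 4.91% of all genes did. Of the 4, 3 had an unadjusted p under 0.05 (24.3% of all genes) and DESeq2 called 0 (12.5%). All 4 fold changes were positive. Tnfsf11 had a log2 change of 1.20 (SE 0.51, adjusted p = 0.165) and Tnfrsf11a of 1.05 (SE 0.39, adjusted p = 0.123). Csf1 had 0.64 (SE 0.29, adjusted p = 0.192) and Tnfrsf11b 0.65 (SE 0.45, adjusted p = 0.399). With 1 library left out at a time Tnfrsf11b ranged from 0.41 to 1.19, the highest without the BNED of rat 4. Tnfsf11 and Tnfrsf11a were the 2 genes of the 4 whose libraries did not overlap, and 12% of all genes were higher in PMMA bone without overlap. In a fit to the 8 bone libraries alone, both passed, at adjusted p = 0.0303 for Tnfsf11 and 0.0317 for Tnfrsf11a. That fit called 1767 genes of the whole table, against 631 in the fit to all 16 libraries. Osteoblast marker sums separated the same way without overlap. So did the sums of osteocyte markers (8 of 10 in the table, none at 0), at 2385 to 3287 CPM in PMMA bone against 738 to 2315 CPM in BNED, and of fibroblast markers, at 11102 to 20553 CPM in PMMA bone against 5388 to 7396 CPM in BNED. All 10 fibroblast markers had a positive fold change, and 2 passed. Of the 10 osteoblast and 7 osteocyte markers tested, all had a positive fold change and 0 passed. Of these, 2 osteoblast markers and 1 osteocyte marker had an unadjusted p under 0.05 (24.3% of all genes). The osteocyte mean log2 CPM overlapped, at 5.75 in the PMMA bone of rat 2 and 5.86 in the BNED of rat 3. Erythroid marker sums were higher in BNED than in 3 of 4 PMMA bone libraries. With the erythroid level as a covariate the log2 fold change was 0.83 for Tnfsf11 (adjusted p = 0.792) and 0.52 for Tnfrsf11a (adjusted p = 0.817). With the muscle level it was 0.61 for Tnfsf11 (adjusted p = 0.427) and 0.81 for Tnfrsf11a (adjusted p = 0.199). Csf1 had 0.22 with the erythroid level (adjusted p = 0.886) and 0.38 with the muscle level (adjusted p = 0.379), and Tnfrsf11b had -0.057 with the muscle level (adjusted p = 0.908). The part of the osteoblast, osteocyte and fibroblast markers in these differences was not tested. In this comparison edgeR called 0 genes of the whole table in 5 of the 8 fits that left out 1 library (the BNED of rat 1 or 3, or the PMMA bone of rat 2, 3 or 4), with 2019 to 2654 at an unadjusted p under 0.05. It also called 0 with the erythroid covariate (1001 at an unadjusted p under 0.05), and DESeq2 called 1546 with all libraries.

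The interaction asked whether the spacer difference in the defect differed from that in bone. In the edgeR test 0 of the 4 genes passed, and 0% of all genes did; 0 of the 4 had an unadjusted p under 0.05 (8.94% of all genes), and DESeq2 called 0 of them (1.06%). The difference of log2 fold changes was -0.11 for Tnfsf11 (SE 0.72, adjusted p = 0.984), 0.86 for Tnfrsf11b (SE 0.64, adjusted p = 0.726), -0.72 for Tnfrsf11a (SE 0.55, adjusted p = 0.737) and -0.58 for Csf1 (SE 0.41, adjusted p = 0.716). Each estimate was less than 1.5 times its SE. Over all genes, 1149 had an unadjusted p under 0.05 and DESeq2 called 136.

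Tnfrsf11a was lower in the membrane than in the bone next to the spacer, by 1.32 on the log2 scale (log2 fold change -1.32, SE 0.39, adjusted p = 0.0274), and was the 1 gene of the 4 that passed there, where 22.2% of all genes did. All 4 IM libraries, at 8.10 to 31.5 CPM, were below all 4 PMMA bone libraries, at 36.2 to 69.9 CPM, and 11.7% of all genes were lower in IM without overlap. The call was lost in the fit to the 8 libraries of this comparison (adjusted p = 0.0900), and without the IM of rat 2 (0.0522), the IM of rat 4 (0.0691) or the PMMA bone of rat 3 (0.0859). Tnfsf11 had a log2 change of -1.34 (SE 0.51, adjusted p = 0.0703), which without the IM of rat 1 was -2.22 (adjusted p = 0.00220). That fit called 4047 genes of the whole table, against 2860 with all libraries. The membrane left out had the highest Tnfsf11 of the 4, so part of this gain follows from leaving it out. Tnfrsf11b went the other way from Tnfsf11, with a log2 change of 1.26 (SE 0.46, adjusted p = 0.0597). Csf1 had -0.65 (SE 0.29, adjusted p = 0.115) and was lower in IM in 4 of 4 rats. All 4 genes had an unadjusted p under 0.05 (37.4% of all genes), and DESeq2 called 3 (29%).

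In the empty limb, PFNU against BNED, 0 of the 4 genes passed the edgeR test, where 30.2% of all genes did. Of the 4, 1 had an unadjusted p under 0.05 (42.9% of all genes) and DESeq2 called 1 (37%). Tnfsf11 had a log2 change of -1.23 (SE 0.51, adjusted p = 0.0811) and was lower in PFNU in 4 of 4 rats, with overlap between the groups. In the fit to these 8 libraries it passed (adjusted p = 0.0104), where 5443 genes of the whole table did, against 3884 in the fit to all 16 libraries. Tnfrsf11a had -0.60 (SE 0.39, adjusted p = 0.254), Tnfrsf11b 0.40 (SE 0.45, adjusted p = 0.524; 0.056 without the PFNU of rat 1 and 0.94 without the BNED of rat 4) and Csf1 -0.07 (SE 0.29, adjusted p = 0.866). Both comparisons of defect tissue with bone coincide with the difference in muscle markers given above. In each, 9 of 11 erythroid and 9 of 10 neutrophil markers also fell, and 7 of 8 smooth muscle markers rose. Of 10 osteoblast markers, 6 fell in IM against PMMA bone and 3 in PFNU against BNED. Over all genes, 11.3% rose and 11% fell in IM against PMMA bone, and 15% rose and 15.2% fell in PFNU against BNED. The part of these marker lists was not tested.

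**Figure D2:**
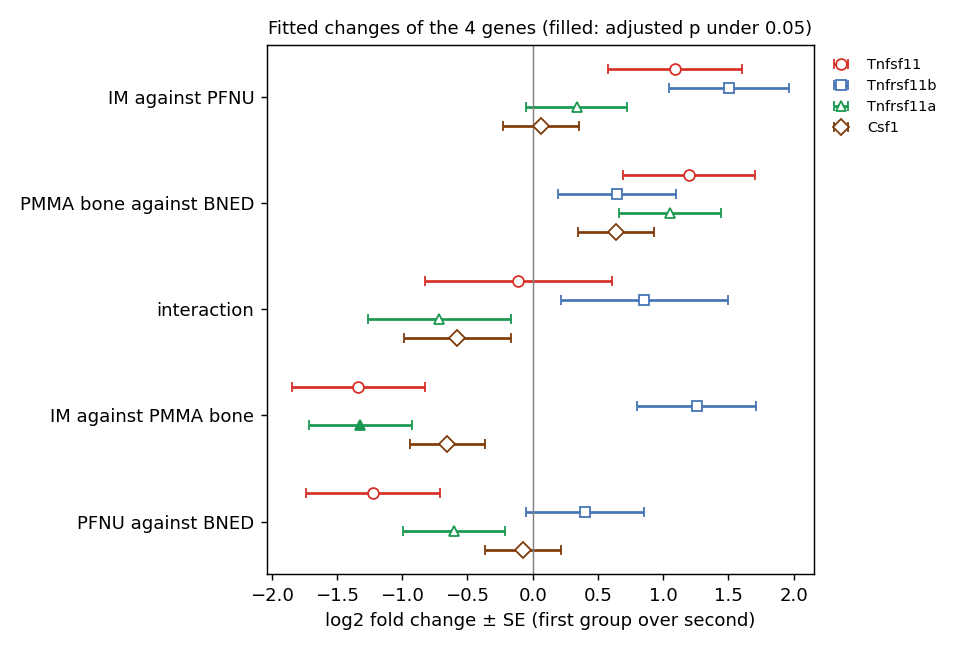
Log2 fold changes of the 4 genes (horizontal axis) in the 5 comparisons, each with its standard error as a bar, from the edgeR fit to all 16 libraries. Filled points mark an adjusted p under 0.05, which Tnfrsf11a in IM against PMMA bone has at -1.32.

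The ratio of Tnfsf11 to Tnfrsf11b counts is formed within a library, so no scaling between libraries enters it, but it is not per length and its size is not a ratio of molecules. It stood at 0.146, 0.0333, 0.0720 and 0.0472 in the IM of rats 1 to 4, against 0.348, 0.406, 0.724 and 0.477 in PMMA bone. The ranges did not overlap, and the ratio was lower in the membrane in 4 of 4 rats. In the empty limb it stood at 0.0579, 0.0989, 0.0994 and 0.251 in the PFNU of rats 1 to 4, against 0.530, 0.409, 0.435 and 0.184 in BNED. Rat 4 had a higher ratio in PFNU than in BNED, and the other 3 rats a lower one.

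On the log2 scale with 0.5 added to each count, the ratio averaged -3.96 ± 0.91 in IM, -3.19 ± 0.88 in PFNU, -1.09 ± 0.45 in PMMA bone and -1.46 ± 0.67 in BNED (SD, n = 4 each). The difference was -2.88 for IM against PMMA bone, where a two-sided exact permutation test gave p = 0.0286, the smallest that 4 against 4 libraries allow, and an adjusted p = 0.143 over the 5 ratio comparisons. It was -1.73 for PFNU against BNED (exact p = 0.0571, adjusted p = 0.143). Between spacer and empty defect it was -0.78 in the defect (IM against PFNU, exact p = 0.286, adjusted p = 0.476) and 0.37 in bone (PMMA bone against BNED, exact p = 0.486, adjusted p = 0.5), both less than the SD of the ratio in IM. The interaction was -1.15, with an exact sign-flip p = 0.5 over the rats (adjusted p = 0.5), where the smallest possible p is 0.125. No comparison of the ratio passed the adjustment. With 1 library left out at a time, the difference ranged from -1.18 to -0.38 for IM against PFNU (closest to 0 without the PFNU of rat 4), and from 0.045 (without the BNED of rat 4) to 0.55 for PMMA bone against BNED. With 1 rat left out, the interaction ranged from -2.18 (without rat 1) to -0.28 (without rat 4). IM against PMMA bone ranged from -3.27 to -2.56. An exact sign flip within rats gave p = 0.125 for IM against PMMA bone, its smallest possible value.

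**Figure D3:**
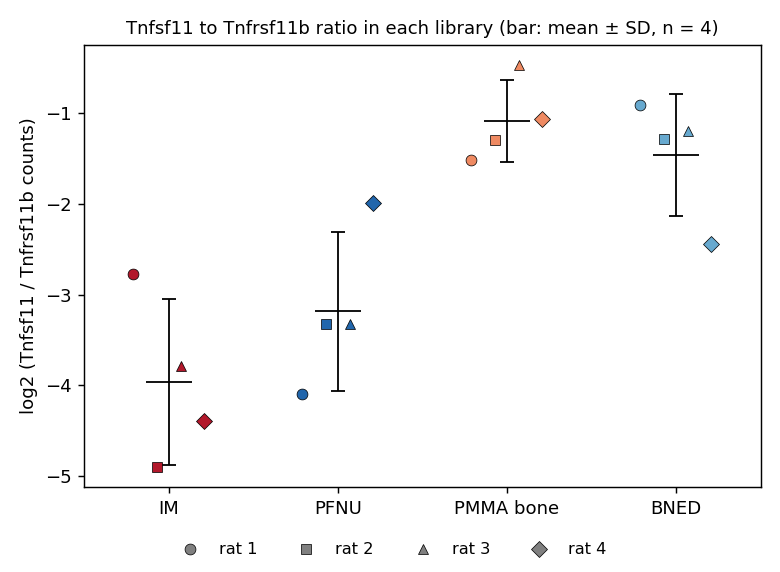
Log2 ratio of Tnfsf11 to Tnfrsf11b counts, with 0.5 added to each count (vertical axis), in each of the 16 libraries by group. Symbols mark the rat and bars give mean ± SD (n = 4). The 4 IM libraries, at -4.90 to -2.77, lie below the 4 PMMA bone libraries, at -1.52 to -0.466.

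The receptor and alternative ligand of M-CSF were followed as companions of Csf1. Csf1r, the M-CSF receptor of macrophages and osteoclast precursors, averaged 501 ± 139 CPM in IM and 301 ± 120 CPM in PFNU, and 606 ± 125 CPM in PMMA bone and 413 ± 80.0 CPM in BNED (SD, n = 4 each). It was higher on the spacer side in 4 of 4 rats in both tissues, with log2 fold changes of 0.74 in the defect (adjusted p = 0.219) and 0.55 in bone (adjusted p = 0.236), neither past the test. Il34, the other ligand of Csf1r, was higher in the defect than in bone. It averaged 43.4 ± 11.3 CPM in IM against 17.7 ± 7.59 CPM in PMMA bone (log2 fold change 1.30, adjusted p = 0.00766), and 32.6 ± 6.27 CPM in PFNU against 9.07 ± 2.35 CPM in BNED (1.85, adjusted p = 5.60e-04).

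Tnfsf10 encodes TRAIL, which OPG also binds. It rose in the defect against bone, at 13.7 ± 7.05 CPM in IM against 5.04 ± 0.311 CPM in PMMA bone (log2 fold change 1.45, adjusted p = 0.0163) and 23.1 ± 9.19 CPM in PFNU against 4.99 ± 0.935 CPM in BNED (2.21, adjusted p = 0.00101). The IM of rat 1 was at 3.74 CPM, below all PMMA bone libraries. Lgr4, reported as a second RANKL receptor that restrains osteoclasts, passed in none of the 5 comparisons (adjusted p 0.131 to 0.846). Of the 11 tested genes listed as alternative ligands, receptors and brakes, 0 passed in IM against PFNU or in PMMA bone against BNED, 2 rose in IM against PMMA bone and 5 rose in PFNU against BNED, with none falling. Over all genes, 11.3% rose and 11% fell in IM against PMMA bone, and 15% rose and 15.2% fell in PFNU against BNED. Sema3a, a semaphorin that restrains osteoclasts in mice, was among the 5 (log2 fold change 2.06, adjusted p = 7.98e-04). Between IM and PFNU DESeq2 called 0 of the 11 (4.46% of all genes) and 1 had an unadjusted p under 0.05 (15.5%). Between PMMA bone and BNED DESeq2 called 1 (12.5% of all genes) and 3 had an unadjusted p under 0.05 (24.3%).

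Downstream of RANK, Traf6, its adaptor, passed only in PFNU against BNED (log2 fold change -0.56, adjusted p = 0.0415). Nfatc1, the transcription factor that RANK signalling induces, passed in none of the 5 comparisons (adjusted p 0.298 to 0.959). It was above BNED in all PMMA bone libraries, at 67.1 to 124 CPM against 48.8 to 65.1 CPM, and 12% of all genes were higher there without overlap. Of 21 tested genes of RANK and Csf1r signalling, 2 rose and 4 fell in IM against PMMA bone, where 11.3% of all genes rose and 11% fell. In PFNU against BNED 2 rose and 4 fell, where 15% of all genes rose and 15.2% fell. Oscar, a costimulatory receptor of osteoclasts, had a log2 change of -3.05 (adjusted p = 0.00184) in IM against PMMA bone. Syk, the kinase below such receptors, fell there (-1.21, adjusted p = 0.0134) and in PFNU against BNED (-1.99, adjusted p = 4.88e-04), while Trem2, a macrophage and osteoclast receptor, rose in IM against PMMA bone (1.65, adjusted p = 0.0211).

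In PMMA bone against BNED, 2 of the 21 fell and 0 rose, where 1.4% of all genes fell and 3.51% rose. The 2 were Btk (log2 fold change -1.20, adjusted p = 0.0364) and Plcg2 (-1.01, adjusted p = 0.0189), signalling genes that B cells also use. Both calls were lost in the 5 fits with 1 library left out, and that with the erythroid covariate, in which no gene was called. Without the PMMA bone of rat 1 the list had 3 lower and 1 higher, where 1363 genes of the whole table were lower and 1215 higher. Btk (-1.90, adjusted p = 5.54e-04) and Plcg2 (-1.71, adjusted p = 9.55e-05) were also lower in PFNU against BNED. B cell markers (9 of 10 in the table, none at 0) summed to 195 to 452 CPM in PMMA bone and 761 to 1089 CPM in BNED; their part was not tested. Between membrane and empty-defect tissue 0 of the 21 passed in edgeR (0.863% of all genes), with 5 at an unadjusted p under 0.05 (15.5%) and 1 called by DESeq2 (4.46%).

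Osteoclast effector genes were lower in defect tissue than in bone. Acp5, the tartrate-resistant acid phosphatase, averaged 379 ± 423 CPM in IM against 2611 ± 807 CPM in PMMA bone (log2 fold change -2.78, adjusted p = 0.00665), and 274 ± 150 CPM in PFNU against 969 ± 191 CPM in BNED (-1.82, adjusted p = 0.0305). Ctsk, the collagen-degrading cathepsin K, averaged 1252 ± 913 CPM in IM against 6617 ± 2492 CPM in PMMA bone (-2.40, adjusted p = 0.00592), and 1036 ± 519 CPM in PFNU against 2686 ± 859 CPM in BNED (-1.37, adjusted p = 0.0486). Of the 14 effector and fusion genes tested, 11 fell and 0 rose in IM against PMMA bone, where 11% of all genes fell, with a median log2 fold change of -2.13 against 0.03 over all genes. In PFNU against BNED 5 fell and 0 rose, where 15.2% of all genes fell (median -1.16 against 0.04). Car2, the acid-producing carbonic anhydrase, had a log2 change of -4.67 in IM against PMMA bone (adjusted p = 8.93e-04) and of -3.79 in PFNU against BNED (adjusted p = 0.00114). Red cells also carry this enzyme, and erythroid markers summed to 27.4 to 349 CPM in IM and 158 to 605 CPM in PFNU, with the bone values given above. Neutrophil markers (10 of 10 in the table, none at 0) summed to 7.52 to 27.0 CPM in IM and 208 to 599 CPM in PMMA bone. The part of either marker list in the osteoclast genes was not tested. Mmp9, a gelatinase of osteoclasts and neutrophils, had a log2 change of -3.32 (adjusted p = 0.00454) and Slc9b2, a sodium and proton exchanger, of -3.10 (adjusted p = 0.00374) in IM against PMMA bone. Slc9b2 fell by 1.74 in PFNU against BNED (adjusted p = 0.0334).

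In PMMA bone against BNED the same 14 effector genes had a median log2 fold change of 1.04 against -0.01 over all genes, and 13 of 14 were positive. In edgeR 0 passed (4.91% of all genes), with 6 at an unadjusted p under 0.05 (24.3%) and 3 called by DESeq2 (12.5%). Without the PMMA bone of rat 1 the edgeR test called 2, 1 higher and 1 lower, where 1215 genes of the whole table were higher and 1363 lower. Acp5 and Ctsk were higher in PMMA bone without overlap, as were 12% of all genes. Their log2 fold changes were 1.43 (adjusted p = 0.153) and 1.30 (adjusted p = 0.133). Calcr, the calcitonin receptor of osteoclasts, passed in none of the 5 comparisons (adjusted p 0.0983 to 0.901). Between IM and PFNU 0 of the 14 passed in edgeR (0.863% of all genes), with 1 at an unadjusted p under 0.05 (15.5%) and 0 called by DESeq2 (4.46%). Without the IM of rat 3, 0 passed and 6 had an unadjusted p under 0.05, where 196 and 2383 genes of the whole table did. That library was picked by its high Acp5, which is 1 of the 14, so part of this change follows from the choice. Dcstamp was not analysed here.

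**Figure D4:**
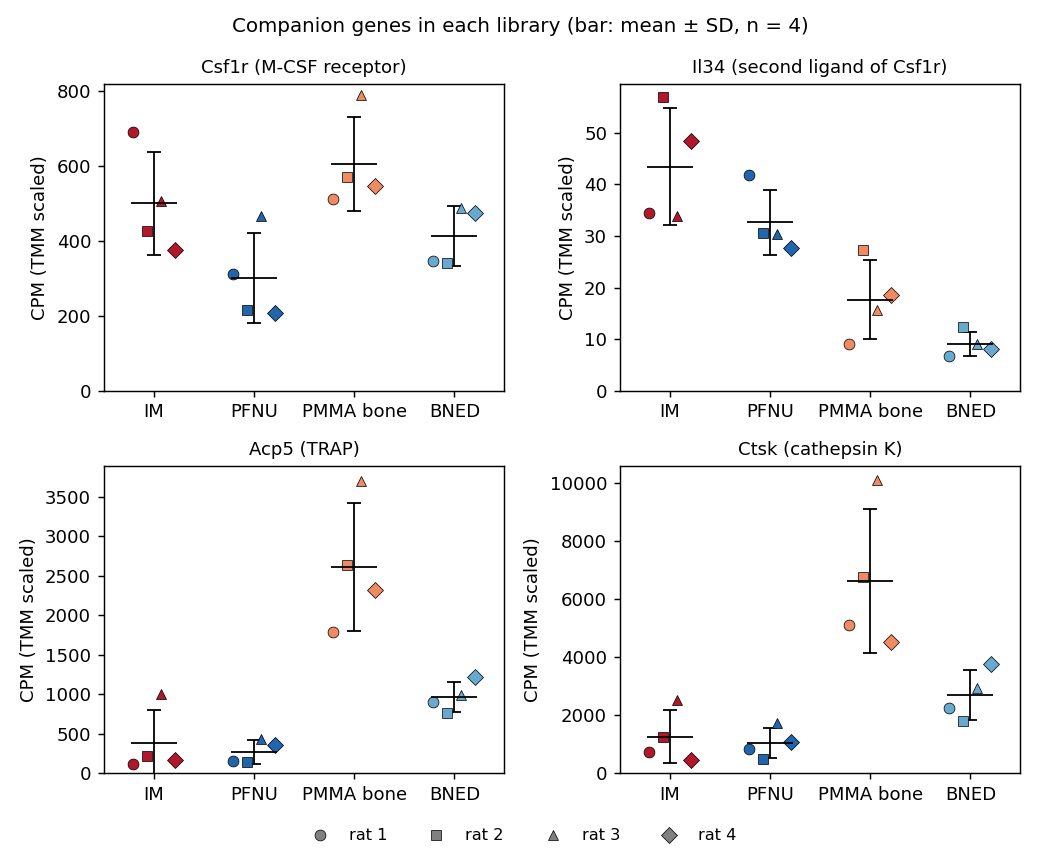
Levels of Csf1r, Il34, Acp5 and Ctsk in CPM (scaled by TMM library size, vertical axis) in the 4 libraries of each group. Symbols mark the rat and bars give mean ± SD (n = 4); Acp5 and Ctsk average 2611 and 6617 CPM in PMMA bone, and Il34 is lowest in BNED at 9.07 CPM.

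Signals known to raise RANKL were described next. Of 17 tested, 1 rose in PMMA bone against BNED, where 3.51% of all genes rose. It was Il6, the inflammatory cytokine, at 2.92 ± 2.99 CPM in PMMA bone against 0.213 ± 0.0873 CPM in BNED (SD, n = 4 each; log2 fold change 3.75, adjusted p = 0.0364). In that comparison 16 of the 17 had a positive fold change (median 0.92 against -0.01 over all genes). Without the PMMA bone of rat 1 the count called was 3, and the genes called in the whole table went from 631 to 2578. The call of Il6 was lost in the 5 fits with 1 library left out, and in that with the erythroid covariate, that called no gene. In IM against PMMA bone 2 rose and 3 fell, where 11.3% of all genes rose and 11% fell. The 3 that fell were Pth1r, the parathyroid hormone receptor of osteoblasts (-2.74, adjusted p = 0.00199), Lif (-2.004, adjusted p = 0.0256) and Il1b (-1.96, adjusted p = 0.0234). In PFNU against BNED 3 rose and 1 fell, where 15% of all genes rose and 15.2% fell. The 3 were Il6st, the shared receptor chain gp130 (1.81, adjusted p = 1.48e-04), Il1r1, the interleukin-1 receptor (1.58, adjusted p = 0.00258), and Osmr, the oncostatin M receptor (1.56, adjusted p = 0.00209). Between IM and PFNU 0 of the 17 passed in edgeR (0.863% of all genes), with 1 at an unadjusted p under 0.05 (15.5%) and 0 called by DESeq2 (4.46%).

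Of 14 tested signals known to raise OPG, 2 rose and 0 fell in PMMA bone against BNED, where 3.51% of all genes rose. They were Wnt5a (log2 fold change 1.10, adjusted p = 0.0428) and Jag1, a Notch ligand (0.90, adjusted p = 0.0341). Without the PMMA bone of rat 1 the count called was 5, and the genes called in the whole table went from 631 to 2578. The calls of Wnt5a and Jag1 were lost in the same fits as that of Il6. In IM against PMMA bone 3 rose and 6 fell, where 11.3% of all genes rose and 11% fell. Lef1, a Wnt effector (-3.24, adjusted p = 0.00106), Wnt16 (-2.77, adjusted p = 0.00565) and Wnt10b (-2.58, adjusted p = 0.00716) were lower in the membrane. The 3 that rose there were Ebf2, a transcription factor that activates the OPG gene in mice (1.87, adjusted p = 0.00324), Esr1, an oestrogen receptor (2.34, adjusted p = 0.0148), and Lrp6, a Wnt coreceptor (0.87, adjusted p = 0.00886); these 3 were named after their values were seen. In PFNU against BNED 3 rose and 2 fell, where 15% of all genes rose and 15.2% fell, with Ebf2 at 2.61 (adjusted p = 2.60e-04), Lef1 at -3.18 (adjusted p = 5.08e-04) and Bmp2 at -1.15 (adjusted p = 0.0320). Between IM and PFNU 0 of the 14 passed in edgeR (0.863% of all genes), with 1 at an unadjusted p under 0.05 (15.5%) and 0 called by DESeq2 (4.46%). Without the IM of rat 3 the edgeR test called 1, where it called 196 genes of the whole table. In the interaction 0 genes of any of these lists passed in edgeR, and DESeq2 called 0. An unadjusted p under 0.05, which 8.94% of all genes had, was found for 3 of the OPG list and 3 of the signalling list. It was also found for 2 of the RANKL list, and 1 each of the effector and alternative lists.

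**Figure D5:**
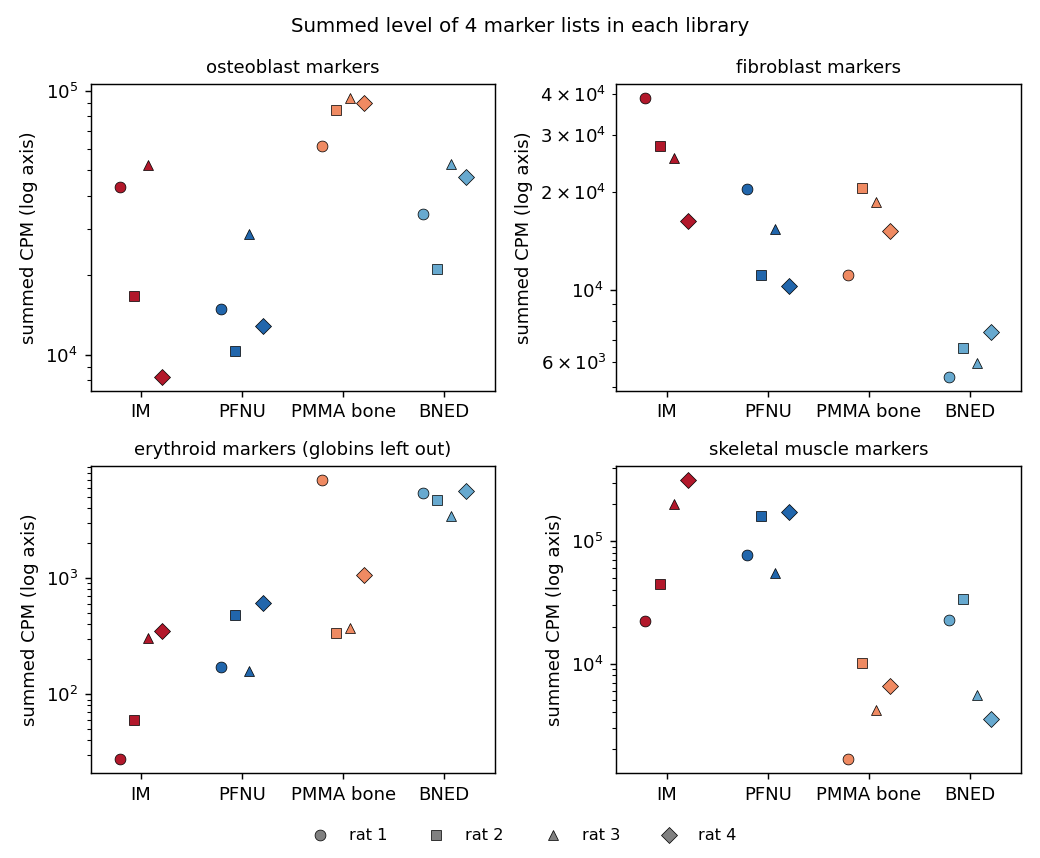
Summed CPM of cell type marker lists (log axis) in the 4 libraries of each group. Osteoblast markers lie at 61633 to 94028 CPM in PMMA bone against 21138 to 52740 CPM in BNED, and the PMMA bone library of rat 1 has 6978 CPM of erythroid markers.

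The genes whose log2 CPM tracked each member most closely were found over the 16 libraries, among 11499 genes averaging 1 CPM or more. These correlations describe libraries that share rats, tissues and groups. Tnfsf11 lay closest to Rab26 (Pearson r = 0.941) and Tnc (0.939), the gene of tenascin C, followed by Ppapdc1b, Plod2 and Rhod. After group means were subtracted, Uhrf1bp1l (0.890), Gemin4 and Rab26 were closest. Tnfrsf11b lay closest to Rsu1 (0.944), Steap1, Cyp7b1, Adm and Rab13, and within groups to Glmn (0.956), Pdia3 and Wdr75. Tnfrsf11a lay closest to Myo1d (0.973), Slc4a2 (0.973), the anion exchanger of osteoclasts, Slc37a2, Src (0.964), a kinase needed for the ruffled border, and Nrp2. Within groups Nrp2 (0.974), Myo1d and Tcirg1 (0.963), a subunit of the osteoclast proton pump, were closest. Csf1 lay closest to Tcirg1 (0.940), Map4k4, Tnfrsf11a (0.934), Snx18 and Slc39a1, and within groups to Slc39a1 (0.946), Tnfrsf11a (0.945) and Tbc1d2b. Tnfsf11 and Tnfrsf11b named none of each other's closest genes.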

How the data were processed

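Per the labels, Trizol RNA cleared of DNA with DNase went into TruSeq stranded poly-A libraries (12 PCR cycles), sequenced paired-end for 100 cycles. Build rn5, TopHat2 2.0.13, Bowtie2 2.2.1, FastQC 0.11.3 and DESeq2 are listed in the submitters' processing notes. The counting program, annotation and strand option are not given in the sources used here, so reads of overlapping or antisense genes cannot be told apart. The deposited values are whole-number counts per gene symbol, made by the authors without normalisation.

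The counts of 16 libraries were fitted in edgeR 4.0.16 (R 4.3.3; TMM, filterByExpr, group means, quasi-likelihood F-test), and p-values were adjusted by Benjamini-Hochberg over 12857 genes in each of 5 comparisons and called under 0.05. SE is the log2 fold change over the square root of F. Alternatives used DESeq2 1.42.0, RLE factors, no filter, the compared libraries alone, rat as a block, marker covariates and each library left out. The ratio test was exact, with 0.5 added to counts. The code was tested on simulated data.

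The members and gene lists were chosen with earlier results of these data known. Named genes were the 4 members, a panel of 10 genes, up to 3 called members of each of 5 pathway lists per comparison (those with the largest change and at least 1 CPM), and each member's closest 5 genes over all libraries and 3 within groups. Groups share rats per the labels, so rat numbers pair them; correlations of same-rat deviations ran from -0.41 to 0.62. No 2 libraries of a group agreed within sampling noise (chi-square per degree of freedom at least 80.6). Reads carry no molecular identifiers, so depth speaks only for counting error, and precision is set by how far the rats differ. The promoter is RefSeq's, from GRCr8.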

Additional observations from a re-analysis of the deposited data

Results flagged for a closer look

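Acp5 in the membrane of rat 3 stood at 1009 CPM, against 113 to 225 CPM in the other 3 membranes, a gap larger than Dixon's 95% criterion allows for 4 samples. It was the 1 of 56 sets of 4 values with such a gap, and chance gives about 1 in 20. Without this membrane, the edgeR test called 14 of 14 effector genes lower in IM against PMMA bone, in place of 11. Over all genes it called 1368 lower, in place of 1413. The library was picked by its high Acp5, which is 1 of the 14, so part of this gain follows from the choice.

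Traf6, the adaptor of RANK, was higher in IM than in PFNU in 4 of 4 rats and lower in PMMA bone than in BNED in 4 of 4 rats. The difference of the 2 log2 fold changes was 0.56 (SE 0.27, adjusted p = 0.586 in edgeR), so the interaction did not pass the test.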

How the results depend on the processing

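RLE factors, no filter on low counts and the replicate block for rat moved no call of the 4 genes, and a pseudocount of 1 moved no call of the ratio. The block gave adjusted p = 0.00765 for Tnfrsf11a in IM against PMMA bone and took the genes called in IM against PFNU to 47, against 111 without it. RLE factors split those calls 27 higher and 62 lower, against 47 and 64 with TMM. The sign flip within rats gave an adjusted p = 0.5 for each ratio comparison.

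With DESeq2, Tnfrsf11b passed in IM against PFNU (log2 fold change 1.52) and in IM against PMMA bone (1.29), and Tnfsf11 in IM against PMMA bone (-1.31) and PFNU against BNED (-1.22). DESeq2 called 572 genes in IM against PFNU, 1546 in PMMA bone against BNED and 136 in the interaction. Fits to the 8 libraries compared passed Tnfsf11 (1.20) and Tnfrsf11a (1.06) in PMMA bone against BNED and Tnfsf11 (-1.27) in PFNU against BNED, and lost Tnfrsf11a (-1.32) in IM against PMMA bone. They called 0 genes in IM against PFNU in edgeR (1323 at an unadjusted p under 0.05, and 572 by DESeq2 with all libraries), 1767 in PMMA bone against BNED and 908 in IM against PMMA bone. In PFNU against BNED they called 5443, against 3884 in the fit to all 16 libraries. The erythroid covariate left 11 genes called in IM against PFNU and 0 in PMMA bone against BNED in edgeR (1001 at an unadjusted p under 0.05), and reversed the sign of Tnfrsf11a (-0.20) and Csf1 (-0.36) in IM against PFNU. The muscle covariate gave 310 and 2150 genes, and reversed that of Csf1 (-0.10) in IM against PFNU and Tnfrsf11b (-0.057) in PMMA bone against BNED. The cause was not tested.

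Leaving out each library in turn, Tnfrsf11a in IM against PMMA bone ranged from -1.66 to -1.06, Tnfsf11 from -2.22 to -1.005, Tnfrsf11b from 0.99 to 1.55 and Csf1 from -0.83 to -0.49. In IM against PFNU, Tnfrsf11b ranged from 1.23 to 1.85, and passed only without the membrane of rat 4 (adjusted p = 0.0489), Tnfrsf11a from -0.0017 to 0.59 and Csf1 from -0.11 to 0.23. The fit without the membrane of rat 4 called 244 genes of the whole table, against 111 with all libraries. Csf1 ranged from -0.20 to 0.075 in PFNU against BNED, and Tnfsf11 in the interaction from -0.96 to 0.26. Without the IM of rat 1, Csf1 (adjusted p = 0.0467), and without the IM of rat 4, Tnfrsf11b (adjusted p = 0.0276) passed in IM against PMMA bone. These fits called 4047 and 1818 genes of the whole table. Genes called ranged from 11 to 244 in IM against PFNU, 0 to 2578 in PMMA bone against BNED, 0 to 199 in the interaction, 1818 to 4047 in IM against PMMA bone and 2637 to 3981 in PFNU against BNED. In the runs with 0 genes called in edgeR, 2019 to 2654 genes of the bone comparison and 765 to 1650 of the interaction had an unadjusted p under 0.05. With 4 rats a group, the spread between rats and not depth limits these values.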

Other observations

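Lymphocytes and macrophages were followed as further cells that make or answer RANKL and M-CSF. T cell markers (11 of 11 in the table, none at 0) summed to between 191 and 309 CPM in IM and between 143 and 318 CPM in PFNU, and to between 216 and 285 CPM in PMMA bone and between 258 and 355 CPM in BNED. The ranges of these sums overlapped in both pairs. Gene by gene, 10 of the 11 were lower in PMMA bone than in BNED (median log2 fold change -0.90). Of the 11, 1 passed (4.91% of all genes) and 4 had an unadjusted p under 0.05 (24.3%). The mean log2 CPM of the list did not overlap there, at 2.63 to 3.23 in PMMA bone against 3.35 to 4.09 in BNED. B cell markers summed to 62.3 to 97.6 CPM in IM and 80.3 to 141 CPM in PFNU, with the bone values given above. Of the 9 tested, 6 fell and 0 rose in IM against PFNU (0.863% of all genes called), with 4 of the list under 1 CPM in IM. In IM against PMMA bone 8 fell (11% of all genes), and in PFNU against BNED 9 fell (15.2%). Macrophage and monocyte markers (11 of 12 in the table) summed to between 2560 and 7639 CPM in IM against 1804 to 3986 CPM in PFNU, and between 2451 and 3223 CPM in PMMA bone against 2301 to 3502 CPM in BNED. Of the 10 tested, 4 rose and 0 fell in IM against PMMA bone, where 11.3% of all genes rose and 11% fell. In IM against PFNU all 10 fold changes were positive, and 0 passed in edgeR (0.863% of all genes). There 6 had an unadjusted p under 0.05 (15.5% of all genes) and DESeq2 called 4 (4.46%).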
